A study of Drosophila melanogaster with 2 samples.

Results

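Of the 1664 reproducible ab-eGFP peaks in Drosophila melanogaster embryos, 339 had a summit within 500 bp of transcription start sites (TSSs) of at least 2 protein-coding genes on opposite strands. They made up 20.4% of the list (95% Wilson interval 18.5 to 22.4%) and are called two-strand promoter peaks here. The members were chosen by position alone, from the peak summits and the Ensembl annotation of the 6 arms analysed, and the rule took no account of their signal beyond the list itself, which holds the 1664 pooled regions of highest signal, from 51.8 upward. A further 544 peaks lay within 500 bp of starts without such an opposite-strand pair (single-direction promoter peaks), 527 lay farther off but within 5 kb of a start, and 254 lay beyond that distance.

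The protein under study is abrupt (ab), a transcription factor with a BTB domain and zinc fingers, mapped by chromatin immunoprecipitation and sequencing with an antibody against the green fluorescent protein fused to its C-terminus. The flies were a stable transgenic line of the strain ab-GFP, and all samples carried the fusion. The single group consisted of 2 biological replicates of whole mixed-sex embryos aged 0 to 24 hours, so each value averages over all cell types and stages of that window. Chromatin was sonicated to 200 to 800 bp. With 1 group there was no contrast between conditions and no test over samples was possible. Replicates are given side by side, and intervals cover counting error only.

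Divergent promoters are a common arrangement in compact genomes such as that of the fly. A pair of genes starts back to back and is read outward from a shared stretch of DNA that is often depleted of nucleosomes and can hold regulatory sites for both genes. In the fly many such pairs encode proteins needed in most cells, and their promoters are known for DRE (bound by Dref), for sites of the boundary protein BEAF-32 and for core promoter motifs 1, 5 and 7, whereas TATA boxes and initiators are better known from regulated genes.

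The sequences below show the DNA between the annotated starts of 6 pairs with a member peak, 5′ to 3′ on the plus strand of dm6, from the RefSeq Release 6 assembly. The first 3 belong to strong member peaks whose interval of 200 to 300 bases overlapped no annotated exon except for the start bases at its ends. The other 3 were picked to show the motifs described later. Capitals mark CGATA (the BEAF-32 core), TATCGATA (DRE), CAGCTG (motif 5, an E-box) and CATCNCT (motif 7) on either strand. They are marked anywhere in the interval, not only near the summit. Of these words, the windows within 50 bp of the summit held only CGATA at CHMP2B/Tcs5 and Atat/Shc and CAGCTG at Nup37/RpS27. At Art3/mRpS10, Mkk4/SLIRP2 and Bulli/CG10147 they held none.
CHMP2B/Tcs5 (chr3L:5139395-5139619): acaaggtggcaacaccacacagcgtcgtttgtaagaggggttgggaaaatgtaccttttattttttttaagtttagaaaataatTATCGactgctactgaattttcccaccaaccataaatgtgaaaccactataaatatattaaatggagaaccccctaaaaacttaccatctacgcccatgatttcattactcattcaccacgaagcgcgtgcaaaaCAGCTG
Atat/Shc (chr3L:9426758-9427010): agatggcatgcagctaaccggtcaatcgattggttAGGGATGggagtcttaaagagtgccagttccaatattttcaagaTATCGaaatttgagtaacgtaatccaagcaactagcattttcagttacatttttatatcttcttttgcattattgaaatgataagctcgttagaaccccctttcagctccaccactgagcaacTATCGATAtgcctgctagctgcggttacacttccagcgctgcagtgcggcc
Art3/mRpS10 (chr3R:15229408-15229665): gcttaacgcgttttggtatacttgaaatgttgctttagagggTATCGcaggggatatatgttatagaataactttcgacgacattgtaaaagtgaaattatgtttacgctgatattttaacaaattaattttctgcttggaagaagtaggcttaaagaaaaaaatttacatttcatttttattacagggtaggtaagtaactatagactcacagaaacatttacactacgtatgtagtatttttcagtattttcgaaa
Mkk4/SLIRP2 (chr3R:8650796-8651084): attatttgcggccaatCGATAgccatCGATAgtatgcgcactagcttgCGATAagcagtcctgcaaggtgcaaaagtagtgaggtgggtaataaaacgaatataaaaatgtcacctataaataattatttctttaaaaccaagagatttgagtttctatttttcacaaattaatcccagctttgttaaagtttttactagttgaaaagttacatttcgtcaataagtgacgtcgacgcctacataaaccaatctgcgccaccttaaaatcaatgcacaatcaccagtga
Nup37/RpS27 (chr3R:25247514-25247658): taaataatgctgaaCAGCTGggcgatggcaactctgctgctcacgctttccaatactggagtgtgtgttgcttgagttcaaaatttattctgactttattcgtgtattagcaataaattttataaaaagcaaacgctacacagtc
Bulli/CG10147 (chr3L:6488424-6488681): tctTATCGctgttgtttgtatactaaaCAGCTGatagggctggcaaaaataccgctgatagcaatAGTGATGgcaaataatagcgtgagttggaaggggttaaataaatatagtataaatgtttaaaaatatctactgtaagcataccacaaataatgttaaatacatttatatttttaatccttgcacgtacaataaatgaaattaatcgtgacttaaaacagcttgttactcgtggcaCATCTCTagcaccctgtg

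The strongest member peak lay between Chro, which encodes the chromodomain protein Chromator, and Ssl1, a subunit of the general transcription factor TFIIH (3L, 22878700 to 22879083). Its signal, the peak caller's score of the region against a control, was 580.3 in the pool of both replicates, 330.6 in replicate 1 and 250.7 in replicate 2. The starts of this pair are 321 bp apart. Next came CHMP2B, a component of the ESCRT-III membrane-cutting machinery, and its partner Tcs5 (3L, 5139314 to 5139683), with 438.3 in the pool, 268.7 in replicate 1 and 160.2 in replicate 2. The peak at CG8320 and the peroxisomal gene Pex11ab had 417.8, 242.7 and 168.2 in the same order, and its starts are only 33 bp apart. These 3 were higher in replicate 1, whereas the next pair was equal in both.

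At CenG1A, an Arf GTPase-activating protein, and mRpS23, a protein of the mitochondrial ribosome, the signal was 405.2 in the pool, 199.1 in replicate 1 and 200.2 in replicate 2. At Art3, a protein arginine methyltransferase, and mRpS10 it was 319.1, 156.7 and 158.0, again nearly equal. The peak between the tubulin acetyltransferase gene Atat and the signalling adaptor gene Shc had 362.9, 240.1 and 127.1, and that at Bdp1, a subunit of the RNA polymerase III factor TFIIIB, and CG6565 had 278.1, 196.1 and 89.6. The 15 strongest members spanned pooled signals of 270.1 to 580.3, and 12 of them were higher in replicate 1. Others among them lay at CG8360/CG8372, CG5098/CG5757, Pal1/Pdrg1, CG12194/tank, CG5611/Mtl, CG7601/CIA30 (a complex I assembly factor), CG9147/Fbw5 and CG3437/CG3552. Members held 13 of the 50 strongest of all 1664 peaks and 51 of the strongest 200, which is 25.5%.

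Over all 339 members the median pooled signal was 79.2 (quartiles 62.8 and 108.6, range 51.9 to 580.3). It was 76.3 at single-direction promoter peaks, 74.4 at proximal and 70.6 at distal peaks. The log2 ratio of the medians of two-strand and single-direction promoter peaks was 0.05 in the pool, 0.28 in replicate 1 and -0.16 in replicate 2. In the pool the classes thus differed by less than the difference between replicates, and the replicates disagreed in direction.

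This disagreement ran through the members as a class. Their median signal was 45.5 in replicate 1 (quartiles 32.9 and 67.1) and 36.5 in replicate 2 (quartiles 25.5 and 51.1), and replicate 1 was higher at 230 of the 329 members with a summit within 200 bp in both. Single-direction promoter peaks had medians of 37.6 and 40.8, and distal peaks of 33.1 and 40. The median log2 ratio of replicate 1 to replicate 2 was 0.39 at members (SD 0.85 over peaks), -0.07 at single-direction promoter peaks, -0.17 at proximal, -0.21 at distal and -0.05 over all peaks. Members were therefore the 1 class of the 4 with a median above 0, that is with more signal in replicate 1. With the members cut into 3 equal parts by pooled signal, the ratio was 0.47 in the strongest, 0.39 in the middle and 0.14 in the weakest part. Read depth was unknown and its part in this difference was not tested.

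**Figure D1:**
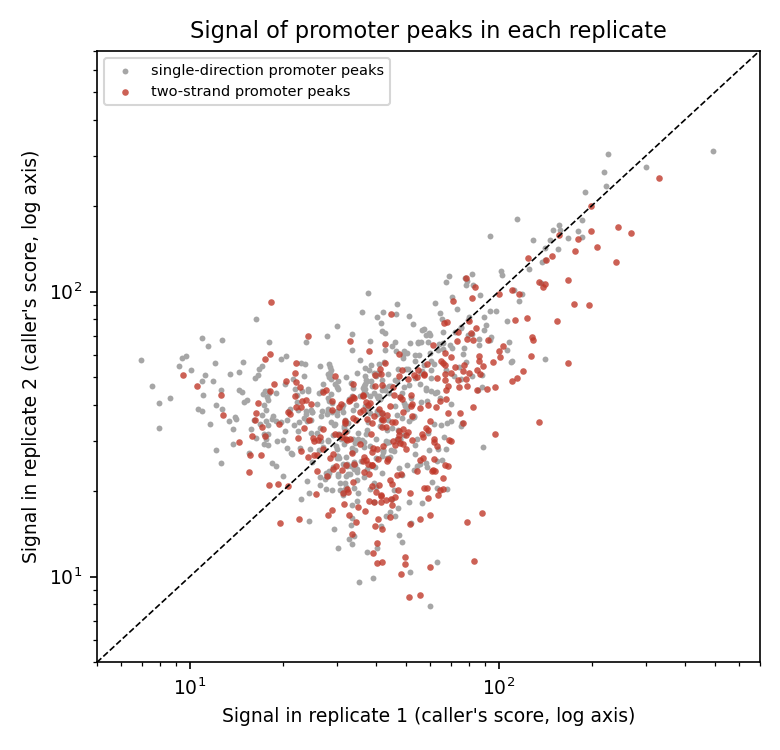
Signal of each promoter peak in replicate 1 (x axis) and replicate 2 (y axis), both log axes of the peak caller's score; red points are two-strand and grey points single-direction promoter peaks, and the dashed line marks equal values. Red points lie more often below the line, with a median log2 ratio of 0.39 against -0.07 for grey points.

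The same difference appeared in which members ranked high in each replicate. Among the strongest 1664 regions of replicate 1, 296 members had a summit within 200 bp (87.3%, interval 83.4 to 90.4%). In replicate 2 this held for 200 members (59.0%, 53.7 to 64.1%). Both conditions held for 170 members (50.1%), near the 53.5% of all 1664 peaks. A further 126 members passed in replicate 1 only, 30 in replicate 2 only and 13 in neither. Over all peaks these counts were 421, 284 and 68. Single-direction promoter peaks were matched at 78.9% and 71.5%. The strongest 1664 regions of replicate 1 taken alone included 386 two-strand promoter regions (23.2%), and those of replicate 2 included 231 (13.9%), so the share of the list at such promoters depended on the replicate. In the strongest of the 3 parts 98.2% were matched in replicate 1 and 92.9% in replicate 2, while in the weakest it was 70.8% and 28.3%.

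Single members at the extremes show how far the replicates could part. At Atg2, an autophagy gene, and CG12093 the signal was 83.1 in replicate 1 and 11.3 in replicate 2, a log2 ratio of 2.88. At CG10343/CG10376 it was 55.5 and 8.60. In the other direction CG32486/PAN3 (PAN3 is a subunit of a poly(A) deadenylase) had 18.3 and 91.8, and AGO1/CG33155/mRpL53 had 10.5 and 46.7. A pair of extreme ratios came from the choice of the nearest summit. At Hat1/Rpn5 the nearest summit of replicate 1 had 9.51 but an overlapping region had 57.4, and at DUBAI/Tmem18 the values in replicate 2 were 8.49 and 46.4. Taking the strongest overlapping region for every member left the median log2 ratio at 0.38. Neighbouring member peaks can share one summit of a replicate, as the pairs of peaks at RpL32 and at Fur1/Vps33B did, and 10 members had no summit within 200 bp in a replicate but were overlapped by a region there.

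The 339 peaks belonged to 320 distinct nearest pairs, 19 of which had 2 peaks, and to 669 distinct genes. At 318 peaks the window held 2 genes, at 19 peaks 3 genes and at 2 peaks more. One of these (3R, 21365415 to 21365598, signals 188.0, 126.8 and 59.5 in the pool and in replicates 1 and 2) had 10 annotated genes, all of them pre-mod(mdg4) entries, and the other had CG42379, CG42380, CG42381, NC2alpha and PIG-M (125.1, 82.4 and 39.5). The starts pointed away from each other at 337 peaks. At the other 2, Adck1/CG4741 and CG31808/Cyt-c-d, the start regions overlapped by 141 and 234 bp, so the class consisted almost wholly of divergent pairs.

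Member pairs were concentrated at start-to-start distances of 201 to 400 bp. Measured at the start pair nearest to the summit, the median distance was 278 bp (quartiles 221 and 368), and 211 of 337 divergent members (62.6%) fell in that range. Among the 2615 divergent pairs of the annotation with starts within 1000 bp, measured at their closest starts, the median was 301 bp (quartiles 163 and 504) and 35.3% fell in the range. The 2 measures differ in which starts they take, and the rule itself limits member distances to 1000 bp. The shortest distances were 6 bp at CG3032/CG4593 and 8 bp at CG17260/SerRS (SerRS encodes seryl-tRNA synthetase), and the longest 783 bp at CG33229/pyx, 717 bp at CG2246/CG31021 and 687 bp at CG3919/stwl.

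The concentration was also present when the genome's pairs were counted in one way throughout. Of all 2720 opposite-strand pairs, 402 (14.8%) had a reproducible summit within 500 bp of the midpoint of their starts. The share was 22.9% (19.5 to 26.6%) at 201 to 300 bp and 21.1% (17.3 to 25.4%) at 301 to 400 bp. It was 11.6% from over 100 to 200 bp, 10.1% at 401 to 500 bp and 8.50% at 701 to 1000 bp. In replicate 1 alone the share was 25% at 201 to 300 bp and 12.1% from over 100 to 200 bp. In replicate 2 alone these were 16.4% and 10.7%, so the order held in both, with a smaller gap in replicate 2. Pairs 1 to 50 bp apart had 15.6%, with 17.2% in replicate 1 and 9.44% in replicate 2.

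**Figure D2:**
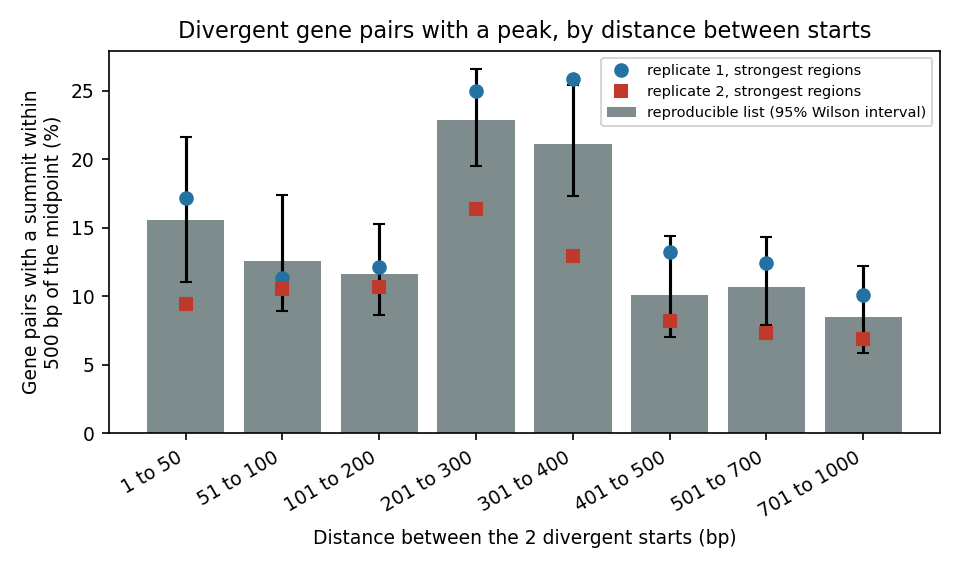
Share of the annotation's divergent gene pairs with a summit within 500 bp of the midpoint (y axis, percent) by the distance between their closest starts (x axis, bp); bars are the reproducible list with 95% Wilson intervals, circles replicate 1 and squares replicate 2. The bars at 201 to 300 bp (22.9%) and 301 to 400 bp (21.1%) are the highest.

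Summits lay mostly between the starts. At 283 of 337 divergent members (84.0%, interval 79.7 to 87.5%) the summit was between both starts, whereas 44.6% of the positions that the rule allowed at these pairs were. For starts 201 to 400 bp apart it was 194 of 211 (91.9%, against 41.8% of allowed positions). The starts taken were the opposite-strand pair nearest to the summit among all annotated starts. The shares of allowed positions do not repeat this choice, so the comparison is not like for like. With the 5′ end of each gene only, 74.7% of summits lay between the starts. No share of allowed positions is available for that setting. The median distance from a summit to the nearer start was 65 bp (quartiles 33 and 99), to the farther start 221 bp and to the midpoint 85.0 bp. Within the interval cut into 3 equal parts, 98 summits lay next to the minus-strand start, 80 in the middle and 105 next to the plus-strand start. The nearer start was on the plus strand at 169 members and on the minus strand at 168, so neither strand was favoured and the summits did not gather at the midpoint. The 54 summits outside the interval lay a median of 46 bp beyond the nearer start.

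**Figure D3:**
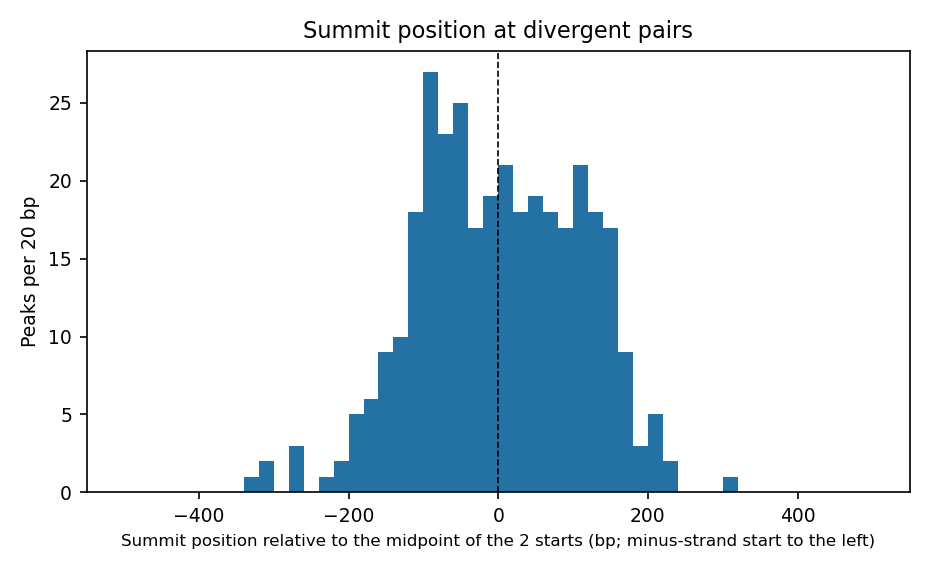
Number of member peaks per 20 bp (y axis) by summit position relative to the midpoint of the starts (x axis, bp, minus-strand start to the left) at the 337 divergent pairs. The summits spread over both sides of the midpoint, with 168 nearer to the minus-strand start and 169 nearer to the plus-strand start.

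The 500 bp limit did not cut through a dense part of the distribution. The farther start lay 451 to 500 bp from the summit at 11 members, with signals of 52.6 to 311.9 and a median of 65.4. It lay 501 to 550 bp away at 7 peaks just outside the class, with signals of 55.0 to 115.8 and a median of 62.7.

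Seen from the genes, a partner on the other strand went with more frequent peaks. Of 13945 protein-coding genes, 8.44% had a reproducible summit within 500 bp of a start. The share was 15.3% (14.4 to 16.3%) of the 5141 genes with an opposite-strand partner start within 1000 bp and 4.42% (4.01 to 4.87%) of the 8804 other genes, a ratio of 3.47. One summit can count for both genes of a pair, and of the 2720 pairs 369 (13.6%) had both genes called and 493 (18.1%) at least one. With the strongest regions of replicate 1 the shares were 17.1% and 4.46% (9.11% of all genes), and with those of replicate 2 they were 11.6% and 4.60% (7.19% of all genes). Genes without a partner thus had the same share in both replicates, and those with a partner differed. In the pooled list, which also holds weaker regions, 339 of 1455 regions at two-strand promoters were reproducible, that is above the signal limit of the list (23.3%, 21.2 to 25.5%), against 11.9% at single-direction promoters, 5.56% at proximal and 4.34% at distal positions and 7.78% of all 21376 regions.

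The X chromosome stood apart from the large autosomal arms in this respect. On the X 75 of 794 genes with a partner had a peak (9.45%, 7.60 to 11.7%), against 713 of 4325 on 2L, 2R, 3L and 3R together (16.5%, 15.4 to 17.6%). Single arms had 17.9% on 2L, 13.2% on 2R (11.3 to 15.4%), 18.9% on 3L and 16.1% on 3R, so the interval of 2R overlaps that of the X. As 1 summit can count for both genes of a pair, the genes are not independent and these intervals are too narrow. In replicate 1 the share of genes with a partner was 11.6% on the X and 18.2% on the autosomal arms. In replicate 2 it was 7.18% and 12.5%, so the X was lower in both. Genes without a partner showed no such deficit. Their share was 5.78% (4.67 to 7.12%) on the X and 4.15% (3.72 to 4.63%) on the autosomal arms, with 6.21% and 4.11% in replicate 1 and 4.99% and 4.53% in replicate 2.

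Members numbered 27 of the 308 peaks on the X (8.77%, 6.09 to 12.5%) and 312 of 1350 on the autosomal arms (23.1%). The X has a like share of genes with a partner (36.2%, against 37.1%) and like distances between divergent starts (median 305 bp, against 301 bp). Among divergent pairs 201 to 400 bp apart, 10 of 131 on the X had a peak (7.63%, 4.20 to 13.5%), against 194 of 791 on the autosomal arms (24.5%, 21.7 to 27.6%). Replicate 1 gave 14.5% and 27.2%, and replicate 2 gave 6.11% and 16.4%. Of the 27 X members, 26 (96.3%) were matched in the strongest regions of replicate 1 and 12 (44.4%) in those of replicate 2. Members on the autosomal arms, at 86.5% and 60.3%, were also matched more often in replicate 1. The strongest X member lay at bves and Stt3A, a subunit of oligosaccharyltransferase, with 196.0 in the pool, 78.2 in replicate 1 and 111.7 in replicate 2. The next, at the fumarase gene Fum1 and the complex I gene ND-ASHI, had 142.8, 78.8 and 68.2. Chromosome 4 had no member, with 22 genes that have a partner, none of them called (upper limit of the interval 14.9%).

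**Figure D4:**
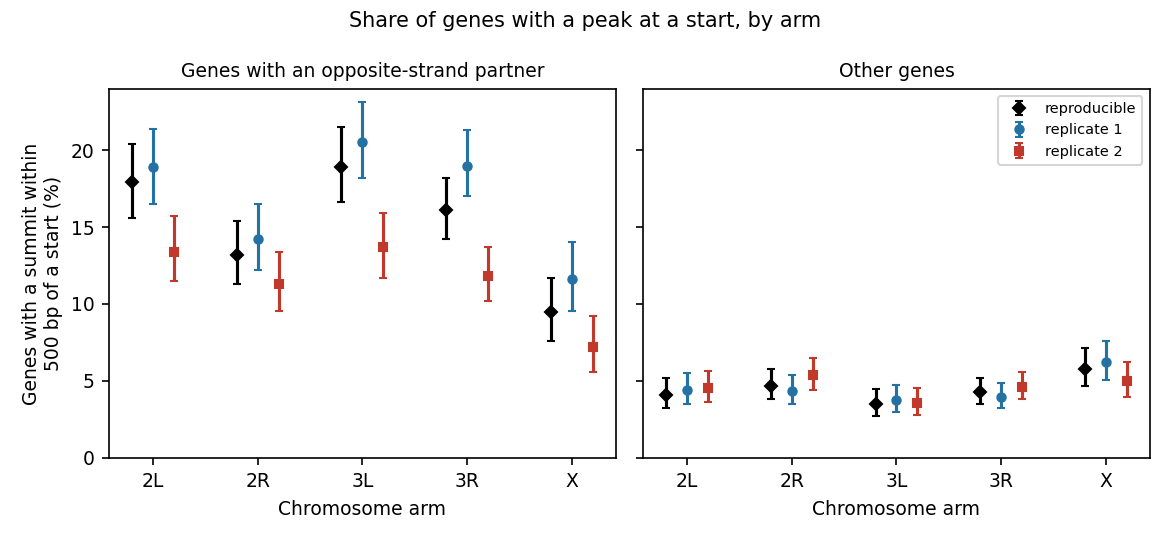
Share of protein-coding genes with a summit within 500 bp of a start (y axis, percent) by chromosome arm (x axis), for genes with an opposite-strand partner start within 1000 bp (left) and other genes (right); diamonds are the reproducible list, circles replicate 1, squares replicate 2, and lines 95% Wilson intervals. In the reproducible list the X is lowest of the 5 arms drawn among genes with a partner (9.45%) and highest among other genes (5.78%), where replicate 2 has a higher share on 2R.

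For the gene lists below, the shares over all genes with a partner are 15.3% in the reproducible list, 17.1% in replicate 1 and 11.6% in replicate 2, and the share of all genes without a partner is 4.42%. These shares count a summit near any start of a gene, so not every gene counted lies at a member peak. In all, 788 genes with a partner had a peak, and 669 genes lay at member peaks. Genes of protein synthesis were among the members throughout the signal range. Of 56 cytosolic ribosomal protein genes with a partner, 19 had a peak (33.9%, interval 22.9 to 47.0%), set beside the 15.3% above. It was 30.4% in replicate 1 and 32.1% in replicate 2. The strongest were RpS27, which shares its promoter with the nucleoporin gene Nup37 (181.3 in the pool, 83.6 and 104.1 in replicates 1 and 2), RpL7 with Ripalpha (163.8, 70.9 and 92.3), and RpS20 with CG17271 (154.7, 81.5 and 71.3). Of the ribosomal protein genes without a partner, 10 of 37 also had a peak (27.0%, beside 4.42% of all genes without a partner), so peaks at this list were frequent outside two-strand promoters as well. RpL13 shares its promoter with Dref, the gene of the DRE-binding factor, where the signal was 57.0, 21.1 and 37.1.

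Mitochondrial ribosomal protein genes with a partner had a peak in 13 of 58 cases (22.4%, 13.6 to 34.7%, 19.0% in replicate 1 and 15.5% in replicate 2), and none of the 15 without a partner did. Their strongest peaks were those of mRpS23 and mRpS10 given above and that of CG9004/mRpL23 (261.3, 175.3 and 90.8). Of genes for oxidative phosphorylation 8 of 44 with a partner had a peak (18.2%), at 13.6% in replicate 1 and 4.55% in replicate 2. This is near the 15.3% of all genes with a partner, and in each replicate below the 17.1% and 11.6% there. Besides ND-ASHI, the complex I gene ND-MWFE with the peptidase gene TppII had 141.1, 86.7 and 51.5, and the pair COX8/VhaM9.7-b, which joins a cytochrome oxidase subunit and a proton pump subunit, had 63.7, 41.5 and 19.3. Translation factors had 6 of 27 (22.2%, 29.6% in replicate 1 and 22.2% in replicate 2), with an interval (10.6 to 40.8%) that holds the 15.3%. The 3 of them at member peaks were eIF1, which shares its promoter with RpL28 (91.5, 48.5 and 42.1), eIF4EHP with CG18428 (89.6, 43.5 and 36.9) and eIF3h with senju (84.2, 18.2 and 60.3). Aminoacyl-tRNA synthetases had 3 of 23 (13.0%, 26.1% in replicate 1 and 13.0% in replicate 2), namely ThrRS, GluProRS and SerRS, which is near the share of all genes with a partner except in replicate 1.

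The vacuolar ATPase, the proton pump of endomembranes, had 7 of 14 genes with a partner called (50%, 26.8 to 73.2%) and 0 of 19 without one, where all genes have 15.3% and 4.42%. It was 42.9% in replicate 1 and 21.4% in replicate 2, beside 17.1% and 11.6% of all genes with a partner, so the share rests partly on replicate 1. The strongest was Vha100-2 with the SNARE gene Vti1b (179.1, 81.7 and 95), then Vha16-5 with CG12299 (131.7, 85.1 and 45.1) and Vha68-1 with mTor, the growth-control kinase (78.8, 48.4 and 22.9). Vesicle traffic genes had 14 of 73 (19.2%), led by CHMP2B, Vps33B with the protease gene Fur1 (243.6, 135.2 and 107.8) and alphaCOP, a subunit of the COPI coat, with CG13919 (148.1, 82.5 and 67.9). This list was at 16.4% in replicate 1 and 17.8% in replicate 2, beside 17.1% and 11.6% of all genes with a partner. Its interval in the reproducible list (11.8 to 29.7%) holds the 15.3% of all genes with a partner.

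Insulator and boundary protein genes had 6 of 11 with a partner called (54.5%, 28.0 to 78.7%, 63.6% in replicate 1 and 45.5% in replicate 2), from a short list. Those at member peaks were Chro, pzg (Putzig, a partner of Dref) with CG12974 (78.7, 31.9 and 35.3), M1BP (which binds motif 1) with CG8202 (74.0, 33.1 and 30.3) and Dref. Genes of RNA polymerase II, its general factors and Mediator had 10 of 48 (20.8%, 11.7 to 34.3%, 20.8% in replicate 1 and 10.4% in replicate 2). That interval holds the 15.3% of all genes with a partner, and replicate 2 was below the 11.6% there. The strongest were MED30/Rev1 (144.7, 73.7 and 72.1), CG11247/Polr2H (131.8, 97.3 and 31.7) and MED27/elm (114.2, 67.0 and 49.1). Chromatin regulators had 7 of 43 (16.3%, near the 15.3% of all genes with a partner), 9.30% in each replicate and 4 of 21 (19.0%) without a partner. Their members include the SWI/SNF ATPase gene brm with Arl1 (93.3, 61.7 and 30.4), the Polycomb methyltransferase gene E(z) with Cnep1r2 (82.6, 50.2 and 28.1) and Sfmbt with CG43925 and CG5439 (78.1 in the pool and 49.8 in replicate 1).

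The remaining lists were below the 15.3% of all genes with a partner in the reproducible list, though not always in a single replicate. DNA replication and repair had 6 of 48 (12.5%, 18.8% in replicate 1 and 8.33% in replicate 2), with the ATM kinase gene tefu beside Hsc70-4 (106.0, 88.5 and 16.7), the polymerase delta gene PolD2 (101.8, 59.7 and 35.2) and the helicase gene dpa (91.2, 45.6 and 46.2). The proteasome had 3 of 26 (11.5%, 3.85% in replicate 1 and 15.4% in replicate 2), namely Rpn5 (119.5, 57.4 and 51.1), Prosalpha6 and Rpn3, and the nuclear pore had 2 of 22 (9.09%, 18.2% in replicate 1 and 13.6% in replicate 2), Nup37 and Nup98-96. The spliceosome had 1 of 33 (3.03%, 0.537 to 15.3%), U2af50 with PIG-Q (88.8, 62.3 and 23.5), and mitochondrial import had 1 of 7, Tom7 (61.8, 18.2 and 44.7). Lists of tissue-restricted genes hold few genes with a partner. Chemosensory receptors had 27 of 180 genes with a partner and 1 of these called, Ir60e (76.3, 24.2 and 70.1). Cuticle proteins had 0 of 13, and developmental transcription factors 0 of 2.

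For 9 promoter motifs, the window from 50 bp left to 50 bp right of a summit was read on either strand, and flank windows of the same length were centred 300 bp away. Motif 7, CATCNCT, occurred at 40 of 339 members (11.8%, interval 8.79 to 15.7%). It occurred in 3.54% and 5.01% of the left and right flanks, in 4.96% of single-direction promoter peaks and 3.07% of other peaks. Around the starts of all 13945 genes, which are not the same positions as summits, it occurred in 7.35%. At the midpoints of divergent pairs it occurred in 5.60% of those with a peak (3.73 to 8.33%) and 4.86% of those without (4.04 to 5.84%). These intervals overlap, so a difference like that at the summits was not seen at the midpoints. The two-strand promoter regions of replicate 1 alone had 11.4% and those of replicate 2 alone 10.8%, though these lists share many regions. Among the words searched it was the one whose interval at members lay above the shares in all of these other sets.

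Because summits and midpoints are not the same positions, the whole interval between the closest starts was also read, at the annotation's divergent pairs with starts 201 to 400 bp apart, a comparison added after the data were seen. Motif 7 occurred in 60 of 204 intervals with a peak (29.4%, 23.6 to 36.0%) and 142 of 719 without one (19.7%, 17.0 to 22.8%). The shares were 32.1% (26.4 to 38.3%) and 18.4% (15.7 to 21.5%) for replicate 1 alone. For replicate 2 alone they were 28.3% (21.4 to 36.3%) and 20.8% (18.1 to 23.7%), where the intervals of error overlapped. The stretches between the starts had like lengths with and without a peak, with median distances of 283 and 290 bp. Motif 5 was in 22.5% of intervals with a peak and 17.2% without, with 22.6% and 17.0% for replicate 1 and 26.8% (20.1 to 34.8%) and 16.9% (14.5 to 19.7%) for replicate 2, so it was higher with a peak in both and more clearly so in replicate 2. DRE was in 16.7% and 19.2%, with 17.5% and 19.0% for replicate 1 and 10.9% (6.70 to 17.2%) and 20% (17.4 to 22.9%) for replicate 2. TATAAA was in 49.0% and 54.1%, with 50.9% and 53.7% for replicate 1 and 41.3% (33.4 to 49.6%) and 55.0% (51.5 to 58.5%) for replicate 2. Both words were thus less frequent in intervals with a region of replicate 2, while the intervals of error overlapped for replicate 1. CGATA was in 60.3% and 62.4%, with 61.1% and 62.3% for replicate 1 and 55.1% and 63.2% for replicate 2.

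DRE, TATCGATA, occurred at 20 members (5.90%), in 0.590% and 2.06% of the flanks and in 1.84% of single-direction promoter peaks. It also occurred at 5.31% of the midpoints of divergent pairs without a peak and 5.56% of all starts, so member summits did not stand out from these. Summits, midpoints and starts are not the same positions. At midpoints of divergent pairs with a peak DRE was at 2.54% (1.39 to 4.62%), below those without a peak (4.45 to 6.32%). The BEAF-32 core CGATA, which lies within DRE, was at 92 members (27.1%), at 24.5% of midpoints without a peak and at 17.6% of those with one. CAGCTG was at 30 members (8.85%) and at 2.94% of single-direction promoter peaks. It was at 7.11% of midpoints without a peak and 4.83% of those with one. TATAAA was at 18.0% of members, 22.5% of midpoints without a peak and 25.2% of those with one. GAGAG, the site of the GAGA factor, was at 7.96% of members and 12.3% of single-direction promoter peaks. GGTCACAC (motif 1) was at 5 members (1.47%), at 3.02% of midpoints without a peak and at 5.59% of all starts. The Initiator word TCAGT was at 19.5% of members and 31.0% of all starts, and the Zelda word CAGGTAG was at 0.295% of members. At divergent members the summit lay a median of 65 bp from the nearer start, beyond the 50 bp that a window reaches. Shares at members and at all starts are therefore not like for like, and no depletion of motif 1 or the Initiator word follows from them.

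**Figure D5:**
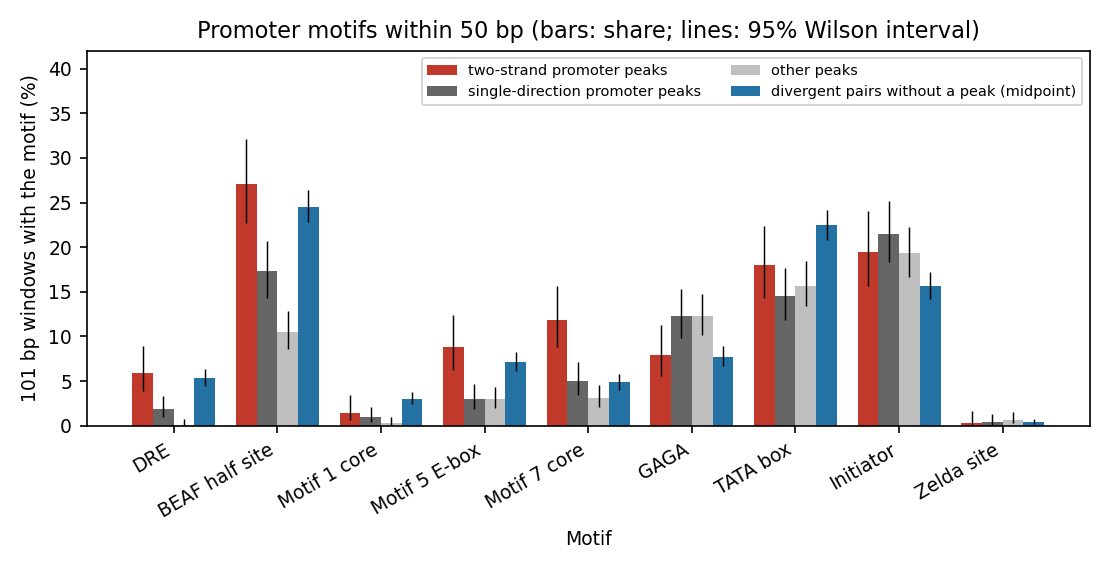
Share of windows of 50 bp on either side that hold each motif (y axis, percent) for two-strand promoter peaks, single-direction promoter peaks, other peaks and the midpoints of divergent pairs without a peak (x axis, motif by colour); lines are 95% Wilson intervals. Motif 7 is at 11.8% of members and 4.86% of pairs without a peak, while DRE is at 5.90% and 5.31%. Windows at peaks are centred on summits and those at pairs on midpoints, which are not like positions.

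DRE and motif 7 were rare among the strongest members, though the counts are small. Of the 50 strongest, none had DRE within 50 bp of the summit and 2 had motif 7, beside 20 and 40 of all 339. CGATA was at 8 of the 50 and CAGCTG at 3, beside 92 and 30 of all members. Median pooled signal was 69.4 with DRE and 79.6 without it, and 74.5 with motif 7 and 79.6 without it. GAGAG was at 5 of the 50 strongest, with a median signal of 94.2 with it and 78.6 without, TATAAA at 11 of the 50 (81.1 and 79.1) and the Initiator word at 12 of the 50 (78.5 and 79.4). The median GC content of the windows was 38.6% at members and 38.6% at single-direction promoter peaks, 35.6% at proximal and 36.6% at distal peaks. A match is a word in the sequence and was not tested as a binding site.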

How the data were processed

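Regions came from ChIP-seq of 2 biological replicates (1 group). The authors deposited signal values, their peak caller's score of each region against a control on a scale not stated. Relaxed dm6 lists of both replicates and of their pool fed the irreproducible discovery rate method, per the deposited descriptions. The sources used here name no aligner, caller or threshold. Its reproducible peaks are exactly the 1664 pooled regions of highest signal, so a peak strong in 1 replicate can enter. Read depth was unknown.

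TSSs of all transcripts came from Ensembl release 115 (BDGP6.54), positions are 1-based, and 29996 regions of replicate 1 and 30000 of replicate 2 lay on arms 2L, 2R, 3L, 3R, 4 and X. Each replicate's value is that of its nearest summit within 200 bp. Calculations used Python 3.11.15, pandas 2.3.3 and SciPy 1.17.1 (Wilson intervals) and were tested on simulated data. Members, 18 gene lists and 9 motif words were chosen with earlier results of these data known; gene lists were matched by symbol pattern. Named genes are those of the 15 strongest members, the 3 highest and 3 lowest replicate ratios, the 3 strongest of each list, the 3 shortest and longest distances and windows with 4 or more genes; 1 of these is not reported here, and others were named after their values were seen. Alternatives were other distances, annotations, signal cuts, matching rules and single replicates.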

Additional observations from a re-analysis of the deposited data

How the results depend on the processing

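No result changed direction under the alternatives run on the lists, but the log2 ratio of median signals of two-strand and single-direction promoter peaks was 0.28 in replicate 1 and -0.16 in replicate 2. With starts within 200 bp, members numbered 139, the share between the starts was 79.1%, any motif occurred at 61.2% (main value 66.7%), GC content was 34.7%, 59.0% were matched in both replicates, 11.0% of genes with a partner had a peak, 30.9% of pooled two-strand regions were reproducible and 38 list genes lay at members (main value 94). With 1000 bp these gene and pooled-region shares were 17.4% and 18.5%. Among the 832 peaks above the median signal there were 189 members, 76.2% matched in both and 8.89% of genes called, beside 2.26% of genes without a partner. This setting keeps fewer peaks, so the lower count and gene shares follow from the cut. Using the 5′ end of each gene only gave 74.7% between the starts and 13.9% of genes called. A partner within 500 bp gave 17.6%. Windows of 100 bp on either side gave any motif at 89.7% and GC at 36.8%, and counting all listed regions gave 97.1% matched in both. The member count was 423 with 1000 bp. Leaving out a replicate gave 231 to 386 members (13.9 to 23.2% of the list), 76.7 to 88.1% between the starts, GC of 36.6 to 38.6%, and 11.6 to 17.1% of genes called. The ratio of genes with a partner to others stayed between 2.53 and 4.14. The replicate log2 ratio of 0.39 was 0.34 to 0.45 under alternatives added after seeing the data. The remaining 43 values for these results stayed within the limits set (1.5 times for a count), as did 71 values for single motifs and for genes without a partner, and 17 of the latter moved more. The cause of the changes was not tested. No paired analysis was possible because there is 1 group. Depth is unknown, so weak members, most of which ranked low in replicate 2, are the least certain.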

Other observations

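Genes at member peaks were short in comparison with those at single-direction promoter peaks. The median gene length was 2500 bp for the 669 genes at members and 6495 bp for the 508 genes at single-direction promoter peaks. Genes with a partner but without a peak had 2207 bp, close to the members. A single annotated start was present in 61.4% of member genes, in 40% of genes at single-direction promoter peaks and in 70.8% of genes with a partner but no peak.

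Among all words of 6 letters that occurred at 5% or more of the members, CAACAC on either strand had the highest lead over the sets compared, a choice made after the values were seen. It lay within 50 bp of the summit at 15.3% of members, in 5.75% of flank windows, at 8.82% of single-direction promoter peaks, at 3.97% of other peaks and at 5.31% of midpoints of divergent pairs without a peak. In whole intervals between starts 201 to 400 bp apart it occurred in 26.0% with a peak (20.4 to 32.4%) and 17.7% without (15 to 20.6%). The shares were 26.1% and 17.3% for replicate 1 alone and 26.8% and 18.2% for replicate 2 alone. GTTGCA was at 11.8% of members, 6.05% of flanks and 6.62% of single-direction promoter peaks, and in 20.6% and 16.1% of such intervals with and without a peak. No test was made of either word.

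On the X, pooled regions at two-strand promoters were reproducible in 27 of 219 cases (12.3%, interval 8.61 to 17.3%), against 312 of 1226 on the large autosomal arms (25.4%, 23.1 to 28.0%). At single-direction promoters it was 15.1% on the X and 11.3% on the autosomal arms.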
